A study of Mus musculus with 19 samples.

Results

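The collagen gene family was described across 19 mouse mammary tumours measured on 2-colour arrays. Its members were all genes whose platform symbol reads Col, a number, a and a number, and whose spots were measured on at least 70% of the arrays. This gave 42 of 18553 genes: 11 fibrillar collagens, 6 basement membrane collagens (Col4a1 to Col4a6) and 25 other collagens. Col6a3 and Col6a5 were not analysed here. Of 101 spots named for the members, 100 passed the filter, and 38 members were measured on every array, with at least 16 arrays for the others.

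Collagens are the main structural proteins of the extracellular matrix, built of helical chains that wind around each other. Fibrillar collagens assemble into the cables of connective tissue and are made mostly by fibroblasts. Type IV collagens form the sheet-like network of the basement membrane under epithelia and around vessels, and the other members decorate fibrils, anchor epithelia or sit in cell membranes. In mammary tumours the matrix around the epithelium is known for its collagen, and chains of one type are built into the same molecule.

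All tumours were mammary adenocarcinomas of FVB mice, and all carried the simian virus 40 T antigen transgene driven by the rat C3(1) promoter, which is active in mammary epithelium; the sources used here give no ages. There were 7 untreated tumours and 12 from mice given carboplatin, a DNA-crosslinking platinum drug, and paclitaxel, a microtubule-stabilising taxane (carbo/taxol in the labels). Of the treated tumours, 9 were labelled non-responders (4 at 2 weeks and 5 at 3 weeks) and 3 responders (1 at 2 weeks and 2 at 3 weeks); the sources used here do not say how response was judged. Non-responder 1 and responder 3 were 2 tumours of the same mouse, and the replicate numbers only name tumours.

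Values are log2 ratios of tumour RNA over a whole-mouse reference RNA, so 1 unit is 2-fold; the direction is likely rather than stated, and if it were turned the sign of each value would turn. A level is a ratio to the reference, so levels of different genes do not rank their RNA amounts. The 6 luminal epithelial markers averaged 0.68 to 1.52 in the untreated tumours, 0.53 to 1.64 in non-responders and 0.91 to 1.03 in responders, above the reference in each tumour. The titles of 7 arrays (2 untreated, 2 non-responder and all 3 responder) have a hyphen before the mouse number and those of the other 12 do not, and 3 arrays (untreated 1, responder 1 and non-responder 2) listed under 1000 spots at exactly 0, against up to 4115 on others.

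The basement membrane collagens carry the 1 call of the family. Their genes lie in head-to-head pairs, so the promoter windows of the pair that holds the called gene, Col4a5, and of the pair Col4a1 and Col4a2, whose chains are the most widespread, are shown, from RefSeq on build GRCm38.p6, each running from 250 bases before to 50 after the annotated start, 5′ to 3′ on the gene's own strand. Capitals mark the CCAAT box (CCAAT, or ATTGG on the other strand) and the GC box (GGGCGG, or CCGCCC on the other strand). The windows of Col4a1 (chr8:11312777-11313076, minus strand) and Col4a2 (chr8:11312555-11312854, plus strand) overlap, and those of Col4a5 (chrX:141475169-141475468, plus strand) and Col4a6 (chrX:141474027-141474326, minus strand) do not.
Col4a1: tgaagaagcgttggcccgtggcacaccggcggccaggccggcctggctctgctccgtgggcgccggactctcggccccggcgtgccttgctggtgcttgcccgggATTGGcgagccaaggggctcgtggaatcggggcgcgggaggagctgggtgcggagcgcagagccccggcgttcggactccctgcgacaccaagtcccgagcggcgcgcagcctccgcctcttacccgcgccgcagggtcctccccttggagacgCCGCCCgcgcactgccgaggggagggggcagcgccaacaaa
Col4a2: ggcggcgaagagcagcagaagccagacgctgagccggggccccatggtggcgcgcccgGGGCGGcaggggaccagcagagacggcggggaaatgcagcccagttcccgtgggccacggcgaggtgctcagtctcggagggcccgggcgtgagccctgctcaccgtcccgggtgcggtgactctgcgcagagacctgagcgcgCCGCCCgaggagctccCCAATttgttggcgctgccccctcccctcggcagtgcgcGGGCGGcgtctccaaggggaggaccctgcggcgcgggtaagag
Col4a5: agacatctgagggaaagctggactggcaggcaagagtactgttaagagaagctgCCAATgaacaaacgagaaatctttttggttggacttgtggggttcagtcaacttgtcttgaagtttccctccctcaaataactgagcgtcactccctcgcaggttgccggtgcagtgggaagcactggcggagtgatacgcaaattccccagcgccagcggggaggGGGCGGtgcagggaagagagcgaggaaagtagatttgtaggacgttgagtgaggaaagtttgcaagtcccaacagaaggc
Col4a6: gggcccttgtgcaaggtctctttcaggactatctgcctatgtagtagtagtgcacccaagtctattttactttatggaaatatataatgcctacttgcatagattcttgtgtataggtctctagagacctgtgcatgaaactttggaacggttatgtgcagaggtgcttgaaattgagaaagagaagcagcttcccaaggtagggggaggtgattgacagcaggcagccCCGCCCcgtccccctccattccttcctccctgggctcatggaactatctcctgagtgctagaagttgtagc

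The windows of Col4a1 and Col4a2 shared 78 bases, with 21 bases between their annotated starts, whereas the starts of Col4a5 and Col4a6 lay 1343 bases apart. The Col4a1 and Col4a2 windows were 74.0% and 73.7% G and C, and those of Col4a5 and Col4a6 52.7% and 48.3%, beside a median of 52.7% over 32851 windows of the same length. A GC box stood in all 4 windows, once in Col4a1, Col4a5 and Col4a6 and 3 times in Col4a2. The box of Col4a1 lies in the shared bases and is the same site as the last box of Col4a2, read on the other strand. A GC box was present in 35.7% of all windows and in 23 of the 38 windows of collagen genes. A CCAAT box stood once in the windows of Col4a1, Col4a2 and Col4a5 and in 37.4% of all windows; its letters were not in the window of Col4a6. These matches describe the letters only.

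In untreated tumours 33 of the 42 members had a mean level below the reference, 21 of them under -1. All 11 fibrillar collagens were below it, from -2.95 for Col1a1 to -0.55 for Col11a1. Col4a6 (2.25 ± 0.63, SD, n = 7), Col8a1 and Col4a5 (1.83 ± 0.72, SD, n = 7) were the highest ratios. Collagens varied more between tumours of a group than most genes did: the median SD within groups was 0.742 for the 42 members, with 0.374 and 1.27 as the lowest and highest, beside 0.505 for all genes.

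**Figure D1:**
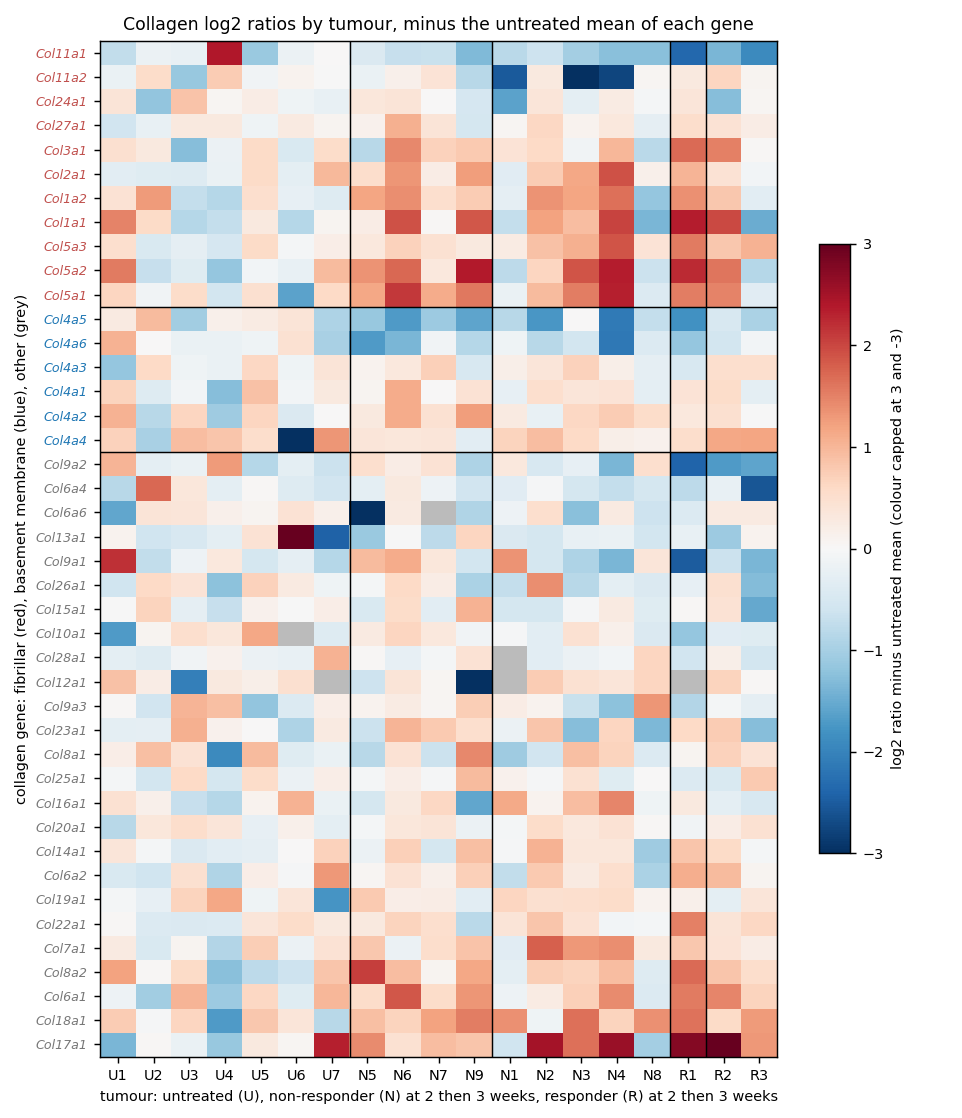
Log2 ratio of each collagen gene (rows) in each of the 19 tumours (columns) minus that gene's mean in the untreated tumours; red is above and blue below that mean, grey is not measured, and the colour is capped at 3 and -3. Col4a5 and Col4a6 are blue in most treated tumours, and non-responder 1, non-responder 8 and responder 3 are less red than the other treated tumours in most of the fibrillar rows.

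The comparison of treated with untreated tumours asked which collagens differed after the drugs. Col4a5, a basement membrane chain on the X chromosome, fell by 1.18 ± 0.30 on the log2 scale (SE; 95% confidence interval -1.81 to -0.55), a 2.27-fold lower ratio in treated tumours (limma, adjusted p = 0.0356). It was the 1 member of 42 that passed the threshold of 0.05 on the adjusted p, beside 3.65% of all genes in either direction and 1.44% in the lower direction. At an unadjusted p under 0.05 there were 11 of 42 members (26.2%), 8 higher and 3 lower, beside 20% of all genes. No member had treated and untreated values that did not overlap, beside 0.334% of all genes. In bulk tumour RNA, fewer cells of a type and less RNA per cell cannot be told apart.

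Col4a5 was measured by 1 spot. Its untreated values were 2.10, 2.77, 0.79, 1.98, 2.07, 2.21 and 0.89. The non-responders at 2 weeks were at 0.69, 0.12, 0.74 and 0.25, those at 3 weeks at 1.00, 0.09, 1.83, -0.30 and 1.10, the responder at 2 weeks at 0.01 and those at 3 weeks at 1.34 and 0.89. Of the untreated tumours 5 lay above all 12 treated ones, while untreated 3 and 7 lay among them. Leaving out 1 array kept the difference between -1.36 and -1.02, but the adjusted p rose to between 0.0514 and 0.0834 without responder 1, without untreated 2, 4, 5 or 6, or without non-responder 4, 5 or 9. With title style as a covariate over all arrays the difference was -1.22 and passed (limma, adjusted p = 0.0314). Within the hyphen titles (2 against 5 tumours) the difference was -1.77 with an adjusted p of 0.369, and within the other titles (5 against 7) it was -0.95 with an adjusted p of 0.202. The call also ended with array weights (limma, adjusted p = 0.0527) and without the 3 arrays with few exact zeros (0.0864).

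Col4a6, the neighbour of Col4a5 whose chain is built into the same kind of network, was lower on all 3 of its spots, by 0.59 to 1.15, and its mean difference was -0.82 ± 0.30 (SE), which did not pass (limma, adjusted p = 0.117). Untreated tumours had values of 3.31, 2.27, 2.04, 2.05, 2.12, 2.71 and 1.27. Non-responders 1 to 9 were at 2.13, 1.41, 1.70, 0.10, 0.56, 0.87, 2.15, 1.84 and 1.40, and responders 1 to 3 at 1.10, 1.71 and 2.17. The upper end of the treated tumours lies among the untreated ones, and 3 untreated tumours were above every treated one.

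Col4a1 and Col4a2, the chains of the network present in nearly all basement membranes, pointed the other way without passing. Col4a1 ran from -3.23 to -1.07 in untreated tumours (median -2.02) and Col4a2 from -2.59 to -0.46 (median -1.51). Treated minus untreated was 0.26 ± 0.25 for Col4a1 (3 of 3 spots higher) and 0.49 ± 0.27 for Col4a2 (2 of 2 spots higher; limma, adjusted p = 0.622 and 0.330). The value of Col4a2 was 0.055 within the hyphen titles and 0.76 within the other titles, 0.31 without untreated 4 and 0.75 without the 3 arrays with few exact zeros. Col4a3 and Col4a4, whose chains join that of Col4a5 in the network of kidney and some other epithelia, had differences of 0.19 ± 0.23 and 0.51 ± 0.46. For Col4a4 the value rests on 1 tumour: untreated 6 was at -5.20 and the other untreated tumours at -2.85 to -0.55, and without untreated 6 the difference was -0.04. Untreated 6 lacked the higher of the 2 spots of Col4a4, whose own differences were -0.14 and 0.43. The class median was 0.22, beside 0.03 for all genes.

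**Figure D2:**
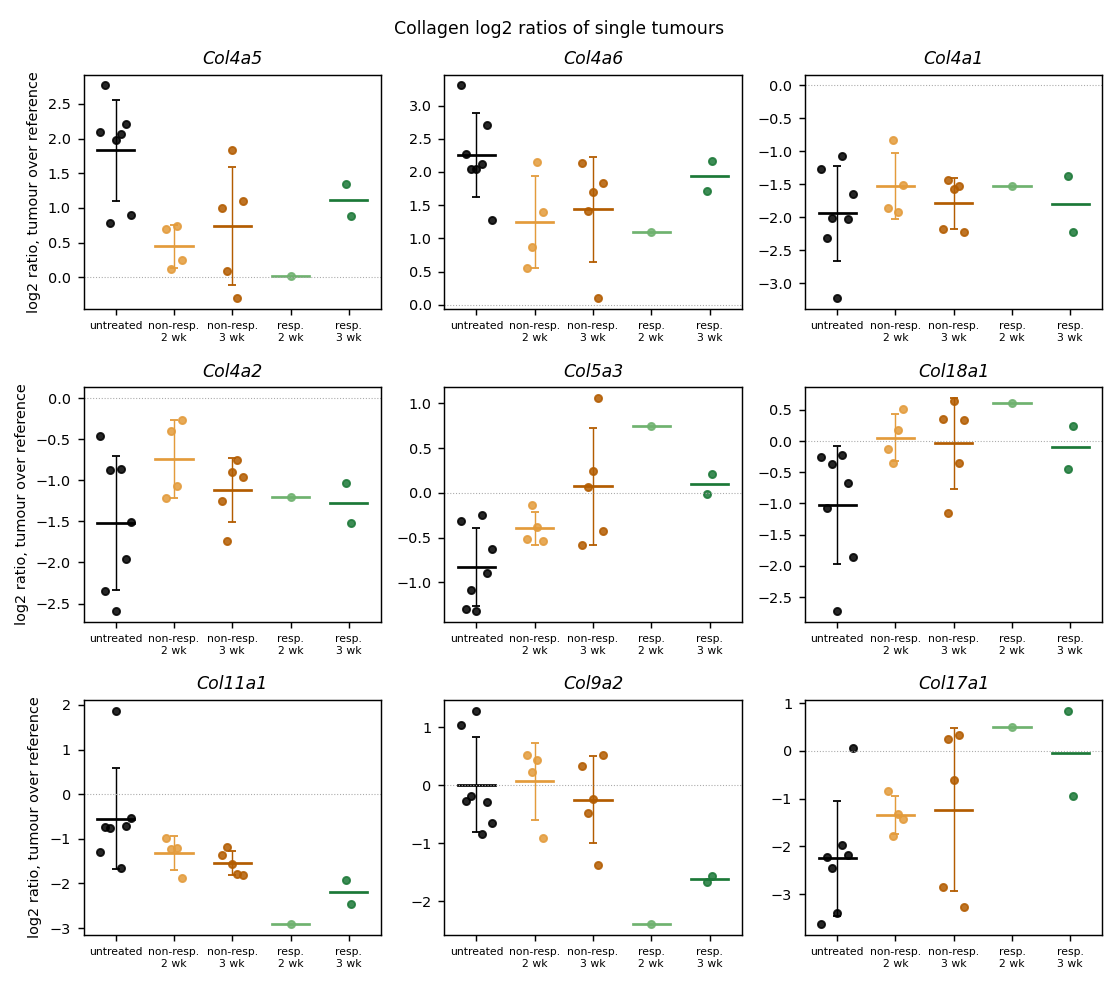
Log2 ratio over the reference for 9 collagen genes in single tumours (points), by treatment, response and week; lines are group means, and bars are ± 1 SD where a group has over 2 tumours. Most untreated tumours lie above the treated ones for Col4a5, and the 3 responders lie below all other tumours for Col11a1 and Col9a2. Responder 3 lacks the Col11a1 spot with the highest ratios.

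Most fibrillar collagens were higher in treated tumours, and none passed the test. Of 11 members 8 had a positive difference, and the class median was 0.70, beside 0.19 for all 42 collagens and 0.03 for all genes, of which 52.7% were positive. The median was lower within the hyphen titles, at 0.14, and ranged up to 0.92 over the other settings tried. The 3 type V chains, which join type I collagen in mixed fibrils, had differences of 1.07 ± 0.40 (Col5a1), 1.02 ± 0.51 (Col5a2) and 0.80 ± 0.23 (Col5a3). The adjusted p from limma was 0.128, 0.266 and 0.0556. Col5a1 was at 0.42 within the hyphen titles and 1.46 within the other titles. Its 2 spots differed by 0.47 and 1.21. Untreated 6 lacked the Col5a1 spot with the higher ratios, and without that tumour the difference of Col5a1 was 0.81.

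Col5a3 had untreated values of -0.32, -1.29, -1.09, -1.32, -0.25, -0.89 and -0.62. Non-responders 1 to 9 were at -0.59, 0.06, 0.24, 1.06, -0.52, -0.14, -0.38, -0.42 and -0.54, and responders at 0.74, -0.01 and 0.21. The responders were above all untreated tumours, and the non-responders overlapped them. Its adjusted p fell to 0.0361 without untreated 1 to 0.0497 without non-responder 1 and to 0.0345 with only spots measured on every array. With its most variable spot the difference was 1.30 (limma, adjusted p = 0.0929), and the other of its 2 spots differed by 0.31. Within the hyphen titles the difference was 0.89 (limma, adjusted p = 0.466) and within the other titles 0.74 (0.202).

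Col1a1 and Col1a2, the chains of type I collagen, the main fibril of connective tissue, differed by 0.75 ± 0.54 and 0.70 ± 0.37, and Col3a1, the type III chain of more elastic fibrils, by 0.53 ± 0.35 (limma, adjusted p = 0.472, 0.303 and 0.428). Col1a1 ran from -3.81 to -1.46 in untreated tumours (median -2.88) and from -4.44 to -0.60 in treated ones (median -1.88). Its treated range held the whole untreated range. Non-responder 1 (-3.65), non-responder 8 (-4.31) and responder 3 (-4.44) were the lowest treated tumours for Col1a1, and their means over the 11 fibrillar collagens, -2.35, -2.25 and -2.08, were also the lowest of the treated tumours, whose other means ran from -1.52 to -0.71. All 3 were taken at 3 weeks, and non-responder 1 and responder 3 came from the same mouse.

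Col1a1 and Col2a1 were each measured by 12 spots, 10 of which followed each other with a median r above 0.9. The 10 close spots of Col1a1 gave differences of 0.70 to 0.99, and those of Col2a1, the fibril of cartilage, 0.89 to 1.10. The other 2 spots of Col2a1 were lower in treated tumours, and its most variable spot was at -1.15, so that the mean of 0.70 ± 0.28 (limma, adjusted p = 0.170) turns with the choice of spot. In all, 28 members had over 1 spot, and in 12 of these the spots pointed in opposite directions.

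Col11a1, a minor chain of cartilage fibrils, was 1 of 3 fibrillar members, with Col11a2 and Col24a1, that had a negative difference. Untreated tumours were at -1.29, -0.73, -0.76, 1.87, -1.66, -0.72 and -0.53. Non-responders 1 to 9 were at -1.36, -1.18, -1.57, -1.80, -0.99, -1.23, -1.22, -1.80 and -1.87, and responders at -2.90, -1.93 and -2.46. Untreated 4 stood apart above all others, and the 3 responders were the lowest tumours. The spot with the highest ratios was not measured in responder 3, untreated 3 and 5, and non-responders 5 and 6. The values of these tumours are means over the remaining spots, so their place in this order is uncertain. The difference, -1.15 ± 0.36, was negative on all 4 spots and did not pass (limma, adjusted p = 0.0762); without untreated 4 it was -0.74.

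Col11a2, which encodes another type XI chain, and Col24a1 differed by -0.68 ± 0.55 and -0.16 ± 0.30. Col11a2 has 2 spots at different levels, and the higher one was not measured in non-responders 3 and 4 and untreated 3, so those tumours cannot be set beside the others. The spots differed by -0.64 and -0.36, so the gene's value lies outside both. Col27a1, a fibrillar collagen of cartilage, differed by 0.26 ± 0.19.

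**Figure D3:**
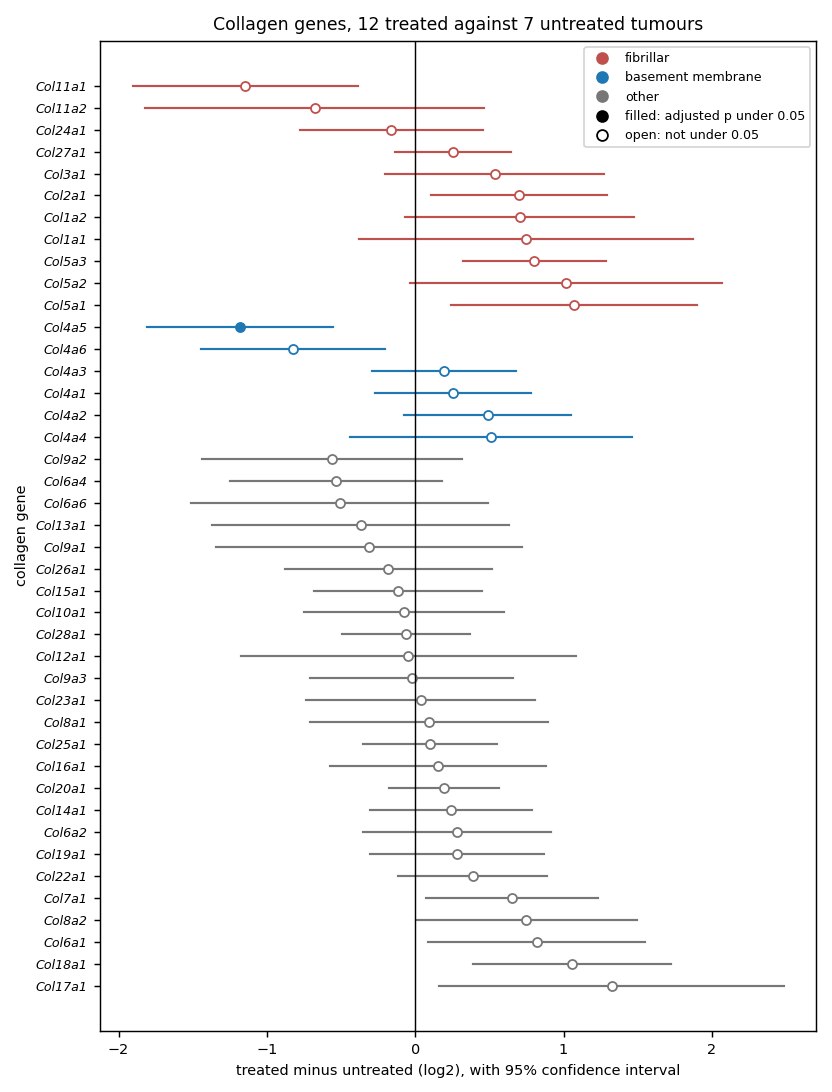
Treated minus untreated difference (log2) of each collagen gene with its 95% confidence interval, for 12 against 7 tumours; filled points have an adjusted p under 0.05. Col4a5 at -1.18 is the 1 filled point, and 8 of 11 fibrillar collagens lie above 0.

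Among the other collagens 14 of 25 were higher in treated tumours, with a median of 0.09, and none passed. Col18a1, a basement membrane collagen of vessels and epithelia whose end fragment is endostatin, had the smallest p of the class. Its untreated values were -0.26, -1.07, -0.37, -2.72, -0.22, -0.67 and -1.86. Non-responders 1 to 9 were at 0.35, -1.16, 0.64, -0.35, -0.12, -0.35, 0.18, 0.34 and 0.51, and responders at 0.60, -0.46 and 0.25. Of the treated tumours 8 lay above all untreated ones, and non-responder 2 lay among the lower untreated tumours. The difference was 1.06 ± 0.32 on 2 of 2 spots (limma, adjusted p = 0.0642), 0.58 within the hyphen titles (0.688) and 1.29 within the other titles (0.118). It passed without untreated 1 (adjusted p = 0.0398), without non-responder 2 (0.0412), without the 3 arrays with few exact zeros (0.0361), with only spots measured on every array (0.0410) and with array weights (0.0468).

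Col17a1, the transmembrane collagen by which basal epithelial cells hold to the basement membrane, had the largest difference of the family, 1.32 ± 0.56 (limma, adjusted p = 0.185). Untreated tumours were at -3.62, -2.22, -2.45, -3.39, -1.96, -2.18 and 0.07, so untreated 7 stood above the rest. Non-responders 1 to 9 were at -2.85, 0.24, -0.61, 0.33, -0.83, -1.79, -1.33, -3.27 and -1.43, and responders at 0.50, 0.84 and -0.94. The highest values were in treated tumours, but the groups overlapped over most of their range. The difference was 2.48 within the hyphen titles, 0.71 within the other titles and 0.84 without the 3 arrays with few exact zeros. Col7a1, the anchoring fibril below the epithelium, differed by 0.65 ± 0.28 (limma, adjusted p = 0.190).

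Col6a1 and Col6a2, chains of the beaded filaments around cells, differed by 0.82 ± 0.35 and 0.28 ± 0.30, and Col8a2, a network collagen, by 0.75 ± 0.36. The adjusted p of Col6a1 was 0.194 and that of Col8a2 0.246 (limma). Col6a1 was at 1.35 within the hyphen titles and 0.62 within the other titles. Col13a1 had no agreement between its 2 spots, at -1.31 and 0.09. Its untreated values ran from -3.04 in untreated 7 to 2.66. Untreated 7 lacked the spot with the higher ratios, so its value cannot be set beside the others.

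When non-responders alone were set against untreated tumours, 0 of 42 members passed, beside 1.53% of all genes (limma), and 8 of 42 had an unadjusted p under 0.05, beside 17.3% of all genes. Col4a5 was lower by 1.22 with an adjusted p of 0.0655, and passed without untreated 3, untreated 7 or non-responder 3. Set against untreated tumours, non-responders at 2 weeks had 0 of 42 members that passed and 9 at an unadjusted p under 0.05, beside 0.0377% and 14.5% of all genes. Non-responders at 3 weeks had 0 and 7 of 42, beside 0% and 11.9%. The difference of Col4a5 was -1.38 ± 0.40 at 2 weeks and -1.08 ± 0.38 at 3 weeks.

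Responders were set against the same untreated tumours, and 0 of 42 members passed, beside 0.0755% of all genes (limma); 11 of 42 had an unadjusted p under 0.05, beside 16.1%. Responders and untreated tumours did not overlap for Col11a1, Col5a3 and Col9a2, which is 3 of 42 members, beside 7.04% of all genes. For Col11a1 the value of responder 3 is a mean without the spot with the highest ratios. Col9a2 encodes a chain of type IX collagen, which coats cartilage fibrils. It was at 1.03, -0.28, -0.19, 1.28, -0.84, -0.28 and -0.64 in untreated tumours, at 0.33, -0.47, -0.23, -1.37, 0.52, 0.23, 0.43, 0.52 and -0.92 in non-responders 1 to 9, and at -2.39, -1.68 and -1.56 in responders. The 3 responders were the lowest tumours of all. Against untreated tumours the difference was -1.89 ± 0.47 for Col9a2 and -1.89 ± 0.49 for Col11a1 (limma, adjusted p = 0.0706 and 0.0725), and without untreated 1 Col11a1 passed.

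The comparison of responders with non-responders asked which collagens went with response. No gene passed, so 0 of 42 members passed beside 0% of all genes, and 2 of 42 had an unadjusted p under 0.05 beside 6.33% of all genes (limma). Those 2 were Col9a2 and Col9a1, both chains of type IX collagen. Responders were below all non-responders for Col9a2 and Col11a1, 2 of 42 members, beside 1.85% of all genes. The difference was -1.77 ± 0.45 for Col9a2 (adjusted p = 0.528), -1.59 ± 0.61 for Col9a1 (0.692) and -0.99 ± 0.47 for Col11a1 (0.787). All 4 spots of Col11a1 were lower in responders, and Col9a2 was measured by 1 spot. Responder 3 lacked the Col11a1 spot with the highest ratios. Col9a3, the remaining type IX chain, differed by -0.50 ± 0.46.

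Col9a1 was at -3.74, -1.87 and -2.62 in responders and from -2.60 to 0.12 in non-responders. Responder 1 was the lowest and carries much of the difference, which was -1.09 without it and -0.79 at 3 weeks alone. Values of Col9a2 and Col11a1 at 3 weeks alone were -1.38 and -0.65. All responders carry the hyphen title, and against the 2 non-responders that share it the differences were -1.81 for Col9a2, -1.91 for Col9a1 and -1.16 for Col11a1. Col17a1 and Col11a2 were higher in responders by 1.41 ± 0.73 and 1.36 ± 0.73, both with an adjusted p above 0.8; with only spots measured on every array Col11a2 was at 0.65. Among the fibrillar collagens 5 of 11 were higher in responders, with a median of -0.03, which ran from -0.49 without responder 1 to 0.53 within the hyphen titles. For Col1a1 responders 1 to 3 were at -0.60, -0.97 and -4.44 and non-responders from -4.31 to -0.92. The 8 markers of cartilage and bone averaged -2.62 to -0.86 in responders, -2.36 to -0.92 in non-responders and -2.85 to -1.45 in untreated tumours, and their part in the values of Col9a1, Col9a2 and Col11a1 was not tested. All 6 markers of skeletal muscle were higher in responders than in non-responders, beside 48.9% of all genes, with a median of 1.21. At an unadjusted p under 0.05 there were 4 of 6, beside 6.33% of all genes, and none passed (limma). The muscle markers averaged -3.31 to -1.09 in responders, -4.22 to -2.38 in non-responders and -5.75 to -2.76 in untreated tumours. Against untreated tumours their median in responders was 1.71, and 5 of 6 had an unadjusted p under 0.05, beside 16.1% of all genes (limma). The part of these markers in the collagen values was not tested.

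Time was compared among the 12 treated tumours, 7 at 3 weeks against 5 at 2 weeks, with response as a covariate. No collagen passed, beside 0% of all genes, and 2 of 42 members had an unadjusted p under 0.05, beside 4.43% of all genes (limma). These were Col8a2, at -0.79 ± 0.35, and Col12a1, a fibril-associated collagen, at 1.41 ± 0.62, which was not measured in non-responder 1 and responder 1 and was at 0.62 without non-responder 9. Of the fibrillar collagens 10 of 11 were lower at 3 weeks, with a class median of -0.48, beside -0.04 for all genes; the median was -0.27 without non-responder 8 and -0.93 within the hyphen titles. In the same comparison 7 of 8 cartilage and bone markers were lower (median -0.88, 4 at an unadjusted p under 0.05), 5 of 5 adipocyte markers were higher (1.45, 3) and 6 of 6 pericyte and smooth muscle markers were lower (-0.39, 0). Beside these, 43.7% of all genes were higher at 3 weeks and 4.43% had an unadjusted p under 0.05. At 3 against 2 weeks the lists averaged -2.62 to -1.94 against -2.31 to -0.86 for cartilage and bone, -4.03 to -0.47 against -4.16 to -2.64 for adipocytes, and -2.36 to -0.96 against -1.60 to -0.80 for pericytes and smooth muscle. No marker passed (limma), and their part in the collagen differences was not tested. Col5a2 differed by -1.002 ± 0.65 and Col11a2 by -1.24 ± 0.68, each with an adjusted p of 0.940. Col5a2 was at -1.84 within the hyphen titles, -0.24 within the other titles and -0.43 without both tumours of the mouse that gave 2. Col11a2 was at 0.064 within the hyphen titles and at -0.071 with only spots measured on every array. The test of whether the time difference depended on response rests on 1 responder at 2 weeks; 0 of 41 members passed, beside 0.0163% of all genes, and 0 had an unadjusted p under 0.05, beside 3.17%.

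Genes that help to build, process and bind collagen were described from lists. Of 14 measured enzymes of collagen modification, 11 were higher in treated tumours, beside 52.7% of all genes. The 2 that rose, beside 3.65% of all genes called in either direction, were Ppib and P3h3. Ppib, a prolyl isomerase of the complex that modifies and folds procollagen, rose by 0.72 ± 0.13 (limma, adjusted p = 0.00713). P3h3, a collagen prolyl hydroxylase family member, rose by 1.25 ± 0.32 (limma, adjusted p = 0.0351). Ppib was higher in every treated tumour than in any untreated one, and 0.334% of all genes had groups that did not overlap. P3h1, Crtap and P4hb, of which P3h1 and Crtap form the complex with Ppib, were at 1.03 ± 0.34, 0.54 ± 0.19 and 0.70 ± 0.25 and did not pass. The list median was 0.42.

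Of 7 genes for removal of propeptides 1 rose, beside 3.65% of all genes called in either direction. It was Pcolce, which enhances the cleavage of procollagen, by 1.38 ± 0.34 (limma, adjusted p = 0.0324). For Pcolce 11 of 12 treated tumours were above the untreated mean, and the list median was 0.15. Of 10 receptor and uptake genes 1 fell, beside 1.44% of all genes called lower. It was Ddr1, the collagen-binding receptor kinase of epithelial cells, by 0.70 ± 0.18 (limma, adjusted p = 0.0370). For Ddr1 11 of 12 treated tumours were below the untreated mean, and the list median was 0.10. Ctsk, a protease that cuts collagen, was at 1.51 ± 0.52 and did not pass.

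None of the other lists had a member that passed. Their medians were 0.17 for 7 folding and export genes, 0.58 for 5 crosslinking enzymes, 0.69 for 8 fibril-associated genes and 0.05 for 12 basement membrane partners. All 8 fibril-associated genes were positive, beside 52.7% of all genes. Sparc, a collagen-binding protein among them, was at 0.84 ± 0.35, and Loxl1, a crosslinking oxidase, was at 1.14 ± 0.35 (limma, adjusted p = 0.0669).

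Most of these calls depended on single arrays. P3h3 passed in 9 of 19 fits with 1 array left out, Pcolce in 11 and Ddr1 in 10, and Ppib in all 19. Adjusted p rose to 0.0522 to 0.0961 for P3h3 without responder 1 or 2, untreated 2, 3, 4, 5 or 6, or non-responder 4, 5 or 9. For Pcolce it rose to 0.05002 to 0.0873 without responder 1 or 2, untreated 2, 4 or 6, or non-responder 4, 5 or 9, and for Ddr1 to 0.0503 to 0.0991 without responder 2, untreated 2, 3, 4 or 6, or non-responder 3, 4, 5 or 7. Against untreated tumours, non-responders alone had Ppib higher by 0.72 ± 0.14 (limma, adjusted p = 0.0204), which did not pass without untreated 4 or 6 (0.0561 to 0.0564) or within the hyphen titles (0.41, adjusted p = 0.773). With title style as a covariate Ppib passed in non-responders (limma, adjusted p = 0.0130). In treated against untreated tumours with that covariate, Ppib, P3h3, Pcolce and Ddr1 passed (limma, adjusted p = 0.00662, 0.0398, 0.0339 and 0.0262). For treated against untreated tumours within the hyphen and within the other titles, the differences were 0.41 and 0.84 for Ppib, 0.94 and 1.34 for P3h3, 1.61 and 1.29 for Pcolce, and -0.48 and -0.87 for Ddr1. Of these 8 values, that of Ppib within the other titles passed (limma, adjusted p = 0.0308). Ddr1 also did not pass under quantile normalization (adjusted p = 0.0756), with the most variable spot of each gene (0.0509) or without both tumours of the mouse that gave 2 (0.0544), and Pcolce did not without the 3 arrays with few exact zeros (0.0532).

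**Figure D4:**
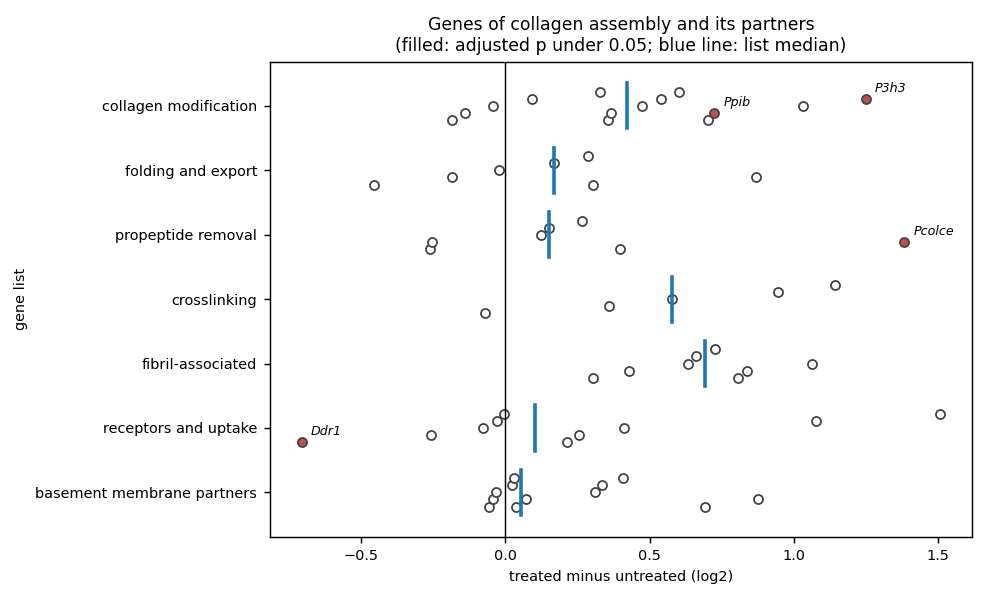
Treated minus untreated difference (log2) of each measured gene in 7 lists of collagen assembly and partners; points are genes, filled where the adjusted p is under 0.05, and the blue line is the list median. Ppib, P3h3 and Pcolce lie to the right and Ddr1 to the left as the filled points.

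Markers of the cells that make collagen were measured beside it. The 10 fibroblast markers averaged -2.09 to -0.71 in untreated tumours, -1.81 to 0.10 in non-responders and -1.70 to 0.01 in responders; 8 of 10 were positive in treated against untreated tumours, with a median of 0.62, and none passed. Of 6 basal and myoepithelial markers 5 were higher and 1 lower in treated tumours, with a median of 0.92, beside 52.7% of all genes higher. Of the 6 markers 3 rose, beside 3.65% of all genes called in either direction. They were the basal keratins Krt14 by 1.03 ± 0.27 and Krt17 by 0.93 ± 0.24, and the contractile gene Cnn1 by 1.59 ± 0.43 (limma, adjusted p = 0.0382, 0.0357 and 0.0417). Their list averaged -1.89 to -0.20 in untreated tumours, -0.88 to 0.37 in non-responders and -0.15 to 0.09 in responders. These 3 calls ended without 10, 6 and 12 of the 19 arrays left out in turn, with adjusted p up to 0.0951, 0.0587 and 0.104, among them responders 1 and 2, untreated 2 and 5, and non-responders 4 and 9 in each case. With title style as a covariate over all arrays, Krt14, Krt17 and Cnn1 passed (limma, adjusted p = 0.0405, 0.0401 and 0.0448). Within the hyphen titles the adjusted p of Krt14, Krt17 and Cnn1 was 0.421, 0.455 and 0.461, and within the other titles 0.166, 0.125 and 0.128 (limma). Without both tumours of the mouse that gave 2, Krt14 and Krt17 were at 0.0515 and 0.0517, and Cnn1 was at 0.0741 under quantile normalization, 0.0501 with the most variable spot and 0.0623 without the 3 arrays with few exact zeros.

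Of 4 macrophage markers 1 rose, beside 3.65% of all genes called in either direction. It was Fcgr3, an Fc receptor, by 1.13 ± 0.20 (limma, adjusted p = 0.00764), but its difference within the hyphen titles, 0.72, did not pass (0.493). Fcgr3 passed with title style as a covariate (limma, adjusted p = 0.00945). The list averaged 0.20 to 1.15 in untreated and 0.22 to 1.82 in treated tumours. The medians of the other lists, none with a member that passed, were 0.34 for pericytes and smooth muscle, 0.20 for endothelium, -0.24 for luminal epithelium, 0.49 for adipocytes, 0.84 for skeletal muscle and 0.26 for cartilage and bone. Their part in the collagen differences was not tested.

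Collagens were then followed across all 19 tumours in 9 pairs of genes, with permutation p adjusted over the pairs; the genes of a pair share the array and its normalization, and the pair Col4a5 and Col4a6 was added after their differences were seen. The chains of type I collagen went together: for Col1a1 and Col1a2 Pearson's r was 0.832 and Spearman's rho 0.826 (permutation, adjusted p = 0.00012 and 0.000158). For Col1a1 and Col3a1 r was 0.776 and rho 0.800, and with the median over spots in place of the mean r was 0.481 and rho 0.421 (permutation, adjusted p = 0.0376 and 0.0743). Col6a1 and Col6a2 had r = 0.819 and rho = 0.823, and Col4a1 and Col4a2 had r = 0.730 and rho = 0.677. Without the 2 tumours farthest from the median of the first gene, r was 0.823, 0.770, 0.758 and 0.521 for these 4 pairs. As deviations from the means of the 5 groups, r was 0.800, 0.748, 0.814 and 0.713, and adjusted p from permutation was at most 0.00096.

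Across classes and markers, Col1a1 had r = 0.696 and rho = 0.740 with Col4a1 and r = 0.815 and rho = 0.799 with Pdgfrb, a receptor of fibroblasts and pericytes. Col4a1 had r = 0.721 and rho = 0.786 with Cdh5, the cadherin of endothelium. Col4a5 and Col4a6 had r = 0.744 and rho = 0.758, and as deviations from the group means 0.566 and 0.688. Col17a1 and Krt14 had r = 0.619 and rho = 0.696, and as deviations 0.448 and 0.342, no longer past 0.05 after adjustment (permutation, adjusted p = 0.0534 for r). Adjusted p for the 9 pairs over all tumours was at most 0.00367. Without the 2 farthest tumours r was 0.699, 0.796, 0.691, 0.730 and 0.665 for the 5 pairs in this order.

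Within title styles r kept its sign for each of the 9 pairs. Within the 12 arrays without the hyphen r was 0.876 for Col1a1 and Col1a2, 0.780 for Col1a1 and Col3a1, 0.787 for Col4a1 and Col4a2, 0.810 for Col6a1 and Col6a2, 0.682 for Col1a1 and Col4a1, 0.841 for Col1a1 and Pdgfrb, 0.769 for Col4a1 and Cdh5, 0.675 for Col17a1 and Krt14 and 0.775 for Col4a5 and Col4a6. Adjusted p there was at most 0.0140 (permutation). Within the 7 hyphen arrays r was 0.578 to 0.847, and by an exact permutation test 1 of 9 pairs, Col1a1 and Col3a1 (r = 0.819), had an adjusted p under 0.05 (0.0321). By rho, this pair and also Col6a1 and Col6a2, each at 0.929, had an adjusted p of 0.0304 (exact permutation).

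**Figure D5:**
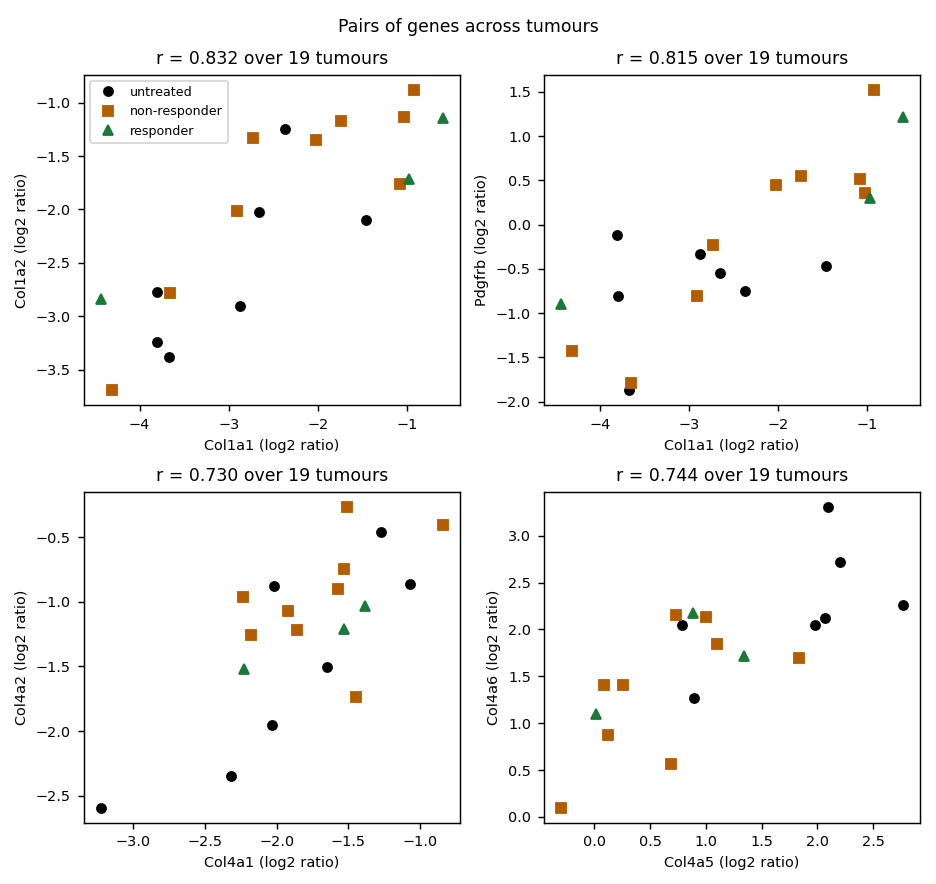
Log2 ratios of 4 pairs of genes in each of the 19 tumours, by group, with Pearson's r of each pair above its panel. Points rise together in each panel, and in the panel of Col4a5 and Col4a6 5 of 7 untreated tumours lie at the upper right.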

How the data were processed

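RNA of 19 tumours was measured on 2-colour arrays, with the tumour in Cy5 and a whole-mouse reference in Cy3 throughout, per the labels; a spot's dye effect cancels in differences between tumours. The deposited values are log2 ratios, as far as the values show: the sources used here do not give the log base, direction, background correction, normalization, filters or what an exact 0 means. Array medians lay between -0.081 and 0.009. An exact 0 (738 to 4115 of 45220 spots per array) was taken as not measured. Spots with 1 gene in the platform annotation (33653) and measured on at least 70% of the arrays of a fit were averaged per gene. The 42 member symbols were matched to the RefSeq gene table of GRCm38.p6, which gave chromosomes and promoters. Depth is not defined for arrays; their number limits precision. Per the labels' titles, the tumours came from separately numbered mice, apart from 1 mouse that gave 2.

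The test was limma's moderated test (version 3.58.1, R 4.3.3; two-sided). P-values were adjusted by the Benjamini-Hochberg method over the genes tested and called under 0.05. These were 18553 genes, or 18624 in the fit of treated tumours. Non-responders at 2 weeks against untreated tumours were tested over 18551 genes, and the interaction of time and response over 18439. Treated and untreated tumours were fitted as 2 groups, response as 3, and response by week as 5. Correlations used 100000 permutations (exact below 10 tumours) in SciPy 1.17.1. The test was checked on simulated data. The members, lists and tests were chosen with earlier results of these data known. Any member could be named; full values are given for members that passed or had the smallest p of their class. The 16 gene lists were collagen modification, folding and export, propeptide removal, crosslinking, fibril-associated genes, receptors and uptake, basement membrane partners, and markers of fibroblasts, pericytes and smooth muscle, endothelium, basal and myoepithelial cells, luminal epithelium, macrophages, adipocytes, skeletal muscle, and cartilage and bone. Alternatives covered spots, filters, normalization, variance, title style and single arrays.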

Additional observations from a re-analysis of the deposited data

Results flagged for a closer look

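Each member was screened for a tumour far from the others of its group (untreated or non-responder, 84 groups of values). In 9 of them 1 tumour stood apart by Dixon's 95% criterion; chance flags about 1 in 20 groups. Col11a1 was at 1.87 in untreated 4, whose removal leaves the treated difference negative. Col5a3 was at 1.06 in non-responder 4. Col24a1, a minor fibrillar collagen, was at -2.76 in non-responder 1. Col9a1 was at 0.95 in untreated 1. Col28a1 was at 1.11 in untreated 7. Col12a1 was at -2.43 in untreated 3 and at -3.60 in non-responder 9, without which its difference at 3 against 2 weeks was 0.62. Col6a6, a type VI chain, was at -2.06 in untreated 1 and at -4.33 in non-responder 5. No member moved in opposite directions in every tumour of the groups compared.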

How the results depend on the processing

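Each result was recomputed under up to 17 other settings, of which 2 were chosen after seeing the data (spots centred before averaging; without the 3 arrays with few exact zeros), and with each of the 19 arrays left out. The 1 collagen that passed in treated against untreated tumours became 4 with only spots measured on every array (Col11a1, Col18a1, Col4a5 and Col5a3, of 36 members tested), 0 within the hyphen titles and 0 within the other titles, and 0 to 3 with 1 array left out (3 without untreated 1, 2 without non-responder 1 or non-responder 2). With only spots measured on every array the count among all genes rose as well, from 678 to 1313. The 4 therefore cannot be read as a gain of collagens alone. Col4a5 stayed negative throughout, from -1.77 to -0.95, with adjusted p from 0.0192 to 0.369; its call also ended with array weights and without the arrays with few exact zeros, where Col18a1 passed in its place. The 0 collagens in non-responders against untreated became 1 with spots measured on every array and 1 without the arrays with few exact zeros (Col18a1), and 0 to 1 with 1 array left out. The 0 in responders against untreated became 2 with spots on every array and 2 with array weights (Col11a1 and Col9a2 in both), and 0 to 1 with 1 array left out. For the other comparisons, responders against non-responders, either week of non-responders, time and its interaction, the count stayed 0 under the settings that could be fitted. Among all genes the count in treated against untreated tumours, 678, ran from 2 within the hyphen titles to 1313 with spots on every array, and with 1 array left out from 212 (without untreated 4) to 1183 (without untreated 1). For non-responders it ran from 0 to 694 around 283 and for responders from 0 to 538 around 14.

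Of the named results 4 turned sign under a setting: Col2a1 treated against untreated at -1.15 with the most variable spot, Col4a4 at -0.041 without untreated 6 (to 0.73 with other arrays left out), Col4a2 in responders against non-responders at 0.24 within the hyphen titles (-0.30 otherwise), and Col11a2 at 3 against 2 weeks at 0.064 within the hyphen titles. The cause was not tested. Within the 7 hyphen arrays the correlations lost the threshold at r of 0.784 (Col1a1 and Col1a2), 0.660 (Col4a1 and Col4a2), 0.847 (Col6a1 and Col6a2), 0.803 (Col1a1 and Col4a1), 0.814 (Col1a1 and Pdgfrb), 0.759 (Col4a1 and Cdh5), 0.578 (Col17a1 and Krt14) and 0.741 (Col4a5 and Col4a6), and Col17a1 with Krt14 lost it as deviations from group means, at 0.448; fewer tumours enter within a title style. By rho, Col6a1 and Col6a2 kept the threshold within the hyphen arrays, at 0.929 (permutation, adjusted p = 0.0304). No paired analysis was possible because only 1 mouse gave 2 tumours, and the replicate numbers, given in accession order, pair nothing. The number of arrays, and 3 responders above all, limits the precision.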
